A study of Homo sapiens with 9 samples.

Results

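A set of 10 genes of the MYC network was followed across the H3K4me3 peak lists of HEL cells, an established human erythroleukemia line. They were MYC, MYCN and MYCL, their partner MAX, the MAX partners MXD1, MXD3, MXD4, MXI1 and MNT, and MLX, a relative of MAX. They were chosen by name, as 10 of 20162 protein-coding genes annotated on hg19, and all 10 were among the 12037 genes that entered the test. H3K4me3, the trimethylation of lysine 4 of histone H3, marks promoters in use. It was mapped by CUT&RUN, an assay that cuts and sequences the DNA around an antibody bound to the mark.

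The 9 libraries came from 4 groups of HEL cells grown in the same medium. Of these, 3 libraries carried a non-targeting control guide (NTC), and 2 libraries each came from CRISPR knockouts (KO) of METTL3, METTL14 or WTAP, which together form the enzyme that writes N6-methyladenosine (m6A) into mRNA. The study's methods use a lentiviral vector, which carries both Cas9 and the guide, for all of its CRISPR work, so that the NTC cells share the vector with the KO cells. Whether a KO library came from a clone or a pool of cells is not given in the sources used here, nor whether replicates were separate cultures, so that p-values measure the spread between these libraries. A library's value for a gene is the largest signal of a peak within 1 kb of any annotated start, in spike-in calibrated units summed over the peak. A value of 0 means that no peak was listed. Libraries without a peak share the same value, so that a group of them adds no spread. For such a group the p-values rest on the spread in the other groups and do not measure its own.

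MYC, MYCN and MYCL are transcription factors that pair with MAX, bind the E-box and raise transcription of genes for growth and ribosome building. The MXD proteins, MXI1 and MNT compete for MAX and recruit repressors to the same sites. MLX pairs with some of them and, separately, with sugar-sensing partners. MYC is a known m6A target in leukemia, and MYC levels fall as erythroid cells mature.

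The NTC libraries held 21724 to 21941 peaks, METTL3-KO 9205 and 9369, METTL14-KO 5286 and 3169, and WTAP-KO 3160 and 3673. The lowest value called was worth 24 to 28 steps of the values in NTC, 66 and 30 in METTL3-KO and 70 to 94 in the other KO libraries, so that, in steps, the weakest listed peak stood higher in each KO library than in each NTC library. In the calibrated units of all values given here the weakest peak was alike in all 9 libraries, from 30.1 to 32.0. The part of this difference in the results below was not tested. The widest peak listed in any library measured 2000 bp, and whether wider peaks were left out was not tested. Of 11 erythroid and megakaryocyte genes, 6 were marked in all 3 NTC libraries, among them GATA1, KLF1 and EPOR, while RHAG and HBG1 were marked in none. Of 11 genes of other cell types, 4 were marked in all 3 NTC libraries, among them PAX5, CD8A and COL1A1, and the other 7 in no library.

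Fewer members had a promoter peak in the KO cells than in NTC, and most had none in METTL14-KO and WTAP-KO. A peak within 1 kb of a start was listed for 9, 9 and 10 of the 10 genes in the NTC libraries, which is 9.33 ± 0.577 (SD, n = 3). METTL3-KO libraries had 6 and 5 such genes (5.5 ± 0.707, n = 2), METTL14-KO libraries 3 and 1 (2 ± 1.41, n = 2) and WTAP-KO libraries 1 and 1 (1 ± 0, n = 2). In bulk samples, fewer marked cells and less mark per cell cannot be told apart. The single member marked in METTL14-KO replicate 2 and in both WTAP-KO libraries was MYC. Over all protein-coding genes the mean share marked was 47.4% in NTC, 34.0% in METTL3-KO, 17.2% in METTL14-KO and 12.2% in WTAP-KO. With peaks within 5 kb, all 10 genes were marked in each NTC library, 9 and 6 in METTL3-KO, and the numbers for METTL14-KO and WTAP-KO were the same as at 1 kb. Over all protein-coding genes the shares at 5 kb were 53.5%, 36.3%, 18.7% and 13.4% in the same order of groups. The METTL3-KO peaks added at 5 kb, at MXD1, MXD3 and MLX, lay 3476 to 4993 bp from the nearest start of the gene. Each of these genes has a neighbour that starts within 5 kb.

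**Figure D1:**
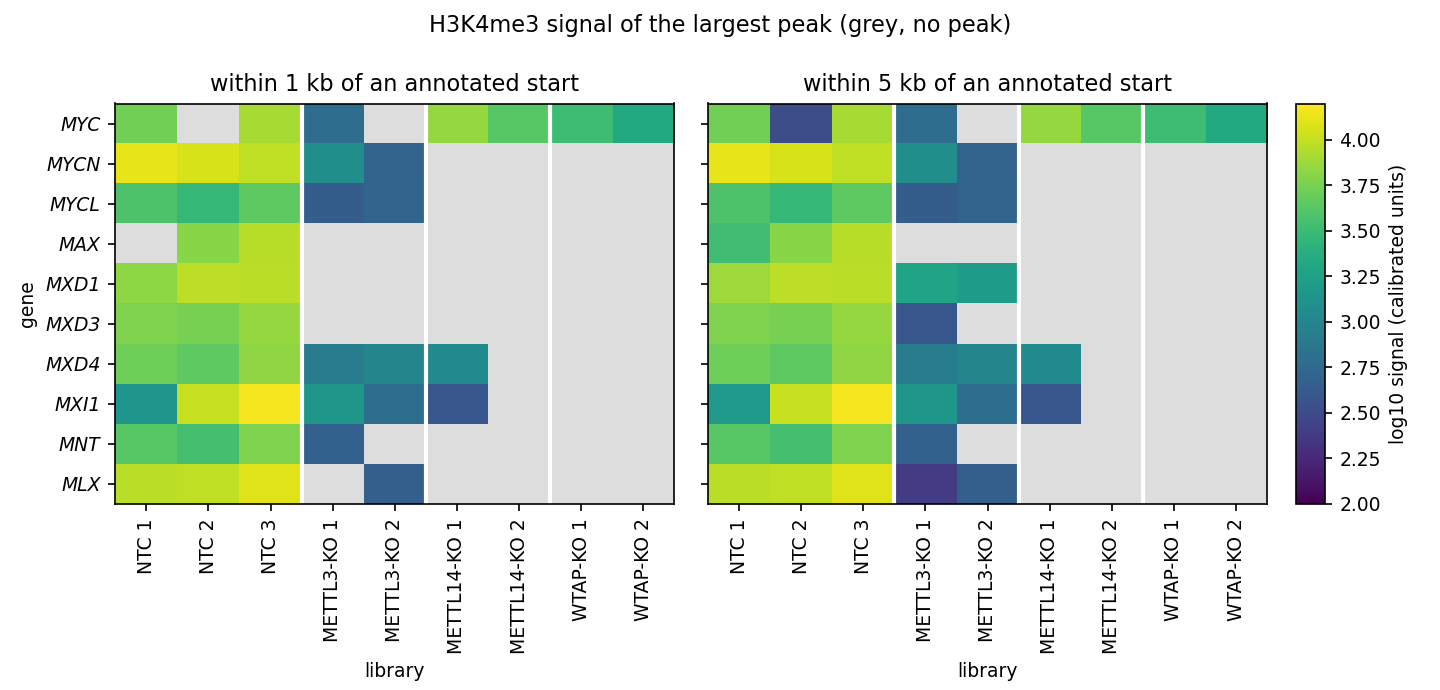
Signal of the largest H3K4me3 peak (log10 of calibrated units, colour) for each gene (rows) in each library (columns), within 1 kb (left) and 5 kb (right) of an annotated start. Grey cells have no peak. MYC is the gene with a peak in all 4 METTL14-KO and WTAP-KO libraries, and the other rows are grey in both WTAP-KO libraries.

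In the test across all genes, 9 of the 10 members were lower in the KO groups combined than in NTC (limma, adjusted p under 0.05), MYC being the exception, where 73.0% of all genes tested were called lower and 14.3% higher. MAX, MXD1 and MXD3 had promoter peaks in NTC alone, and so entered the test through the group where they are high. For METTL3-KO the members called lower were MYCN, MYCL, MXD1, MXD3, MNT and MLX, 6 of 10 beside 60.9% of all genes. For METTL14-KO 8 of 10 were lower beside 68.8% of all genes, and for WTAP-KO 8 of 10 beside 69.7%. In both cases these were all members but MYC and MAX. Of those called, MYCN, MYCL, MXD1, MXD3, MNT and MLX had no peak in METTL14-KO, and none of the 8 had one in WTAP-KO. Calls in a group without a peak compare the NTC level with the 30.1 added to every signal and are a description. No member was called higher in any of these comparisons. The median difference of log2(signal + 30.1) over the members was -6.07 for all KO groups beside -5.30 over all genes tested. It was -4.49 beside -3.48 for METTL3-KO, -7.09 beside -5.57 for METTL14-KO and -7.58 beside -5.97 for WTAP-KO. Where a group had no peak the difference depends on the added 30.1 and is no fold change. With a pseudocount 10 times as large the medians for all KO groups were -3.65 for the members and -2.99 for all genes, and with 0.1 times they were -8.52 and -7.68. The comparisons share the NTC libraries.

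**Figure D2:**
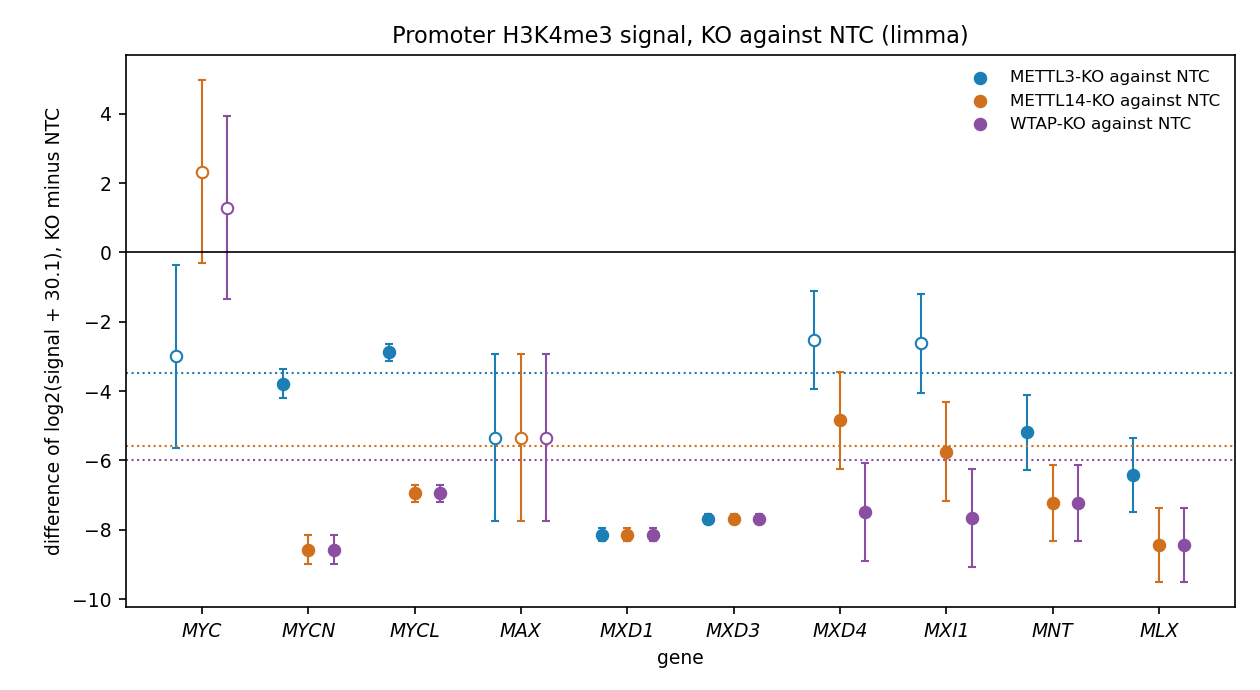
Difference of log2(signal + 30.1) between each KO group and NTC for the 10 genes, with the standard error from limma as bars. Filled circles passed an adjusted p of 0.05, open circles did not, and dotted lines give the median over all 12037 genes tested, from -3.48 for METTL3-KO to -5.97 for WTAP-KO.

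Of the members, 8 were marked in all 3 NTC libraries, all but MYC and MAX. MXD1 and MXD3 had no promoter peak in METTL3-KO, 2 of 8 beside 46.3% of the 8495 genes so marked. MYCN, MYCL, MXD1, MXD3, MNT and MLX had none in METTL14-KO, 6 of 8 beside 73.3%. None of the 8 had one in WTAP-KO, beside 84.9% of all such genes. These shares lie close to or on either side of those of all genes, so that nothing particular to the network is read from them. Every KO library was below every NTC library for 7 of the 10 members and for 8219 of the 12037 genes tested.

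MYC (ENSG00000136997, chromosome 8, 128747680 to 128755197, plus strand, canonical start at 128748477) had peaks in NTC and in KO libraries, at different places. In NTC its promoter signals were 5442, 0 and 8133. They were 609 and 0 in METTL3-KO, 7158 and 4272 in METTL14-KO, and 3290 and 2188 in WTAP-KO. The METTL14-KO and WTAP-KO values lay within the range of the NTC values, and NTC replicate 2 and METTL3-KO replicate 2 had no peak. The difference for all KO groups was 0.21 (SE 2.04, adjusted p 0.926, limma). It was -2.99 (SE 2.64, adjusted p 0.330) for METTL3-KO, 2.33 (SE 2.64, adjusted p 0.442) for METTL14-KO and 1.30 (SE 2.64, adjusted p 0.688) for WTAP-KO. Without NTC replicate 2 the value for all KO groups was -2.39, for METTL14-KO -0.27 and for WTAP-KO -1.30, so that the sign of these 3 values rests on 1 control library. The METTL3-KO value without it was -5.59 (adjusted p 0.0180). Counted within 1 kb of the canonical start, a window chosen after these peaks were seen, the fitted differences were 4.67 for all KO groups, 7.53 for METTL14-KO and 6.49 for WTAP-KO. These are a description, since NTC and METTL3-KO had no peak there and the gene entered that fit only through the libraries where it is high.

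The peaks behind these values lay at different places in MYC. All 4 METTL14-KO and WTAP-KO libraries had a peak over the canonical start, with signals of 7158, 4272, 3290 and 1062, whereas no NTC and no METTL3-KO library had a peak within 1 kb of it. Of these 4 peaks, 3 ended at the same base, 103 bp past the start. With overlapping peaks merged over the libraries, the region from 128747245 to 128748733, which spans the canonical start and exon sequence, was listed at 0 in NTC and METTL3-KO and had summed signals of 7158, 4272, 3290 and 3250 in the other 4 libraries. No test is given for this or other single regions, which were picked with their peaks in view.

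In NTC the MYC peaks lay downstream of the canonical start, those within 1 kb of another start over exon sequence. Replicates 1 and 3 had signals of 2782 and 1931 between 128749834 and 128750690 and of 5442 and 8133 between 128750895 and 128752340. NTC replicate 2 had neither, and its nearest peak, with a signal of 333, lay 1175 bp from the closest annotated start. None of the 6 KO libraries had a peak in the second region, and the first had a signal of 609 in METTL3-KO replicate 1. The stretch around the start without any NTC peak measured 97961 to 100653 bp. Whether an NTC peak wider than 2000 bp covered the start and was left out of the lists was not tested.

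A peak over the canonical start in all 4 METTL14-KO and WTAP-KO libraries and in no NTC library was found for 291 of 20162 protein-coding genes (1.44%), and MYC was the 1 member among them. Of the 291 genes, 257 also had such a peak in a METTL3-KO library, which MYC did not. Of the 566 genes with a start peak in all 4 of these libraries, 51.4% had none in NTC. The start of the antisense lncRNA CASC11 lies 86 bp from another MYC start and 2264 bp from the canonical one. Peaks between the CASC11 start and a MYC start cannot be given to one gene. The genes marked in all NTC libraries with the pattern most like that of MYC over the 9 libraries were HOXB4, CAAP1 and SMARCAL1, at Euclidean distances of 6.23, 8.47 and 8.58 on the log2 scale. At HOXB4, a homeobox gene of blood progenitors, the signal was 3493, 1610 and 3709 in NTC, 902 and 0 in METTL3-KO, and 4398 to 11557 in METTL14-KO and WTAP-KO. This likeness follows from the choice of these genes and is no separate evidence. MYC itself was not marked in all NTC libraries.

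**Figure D3:**
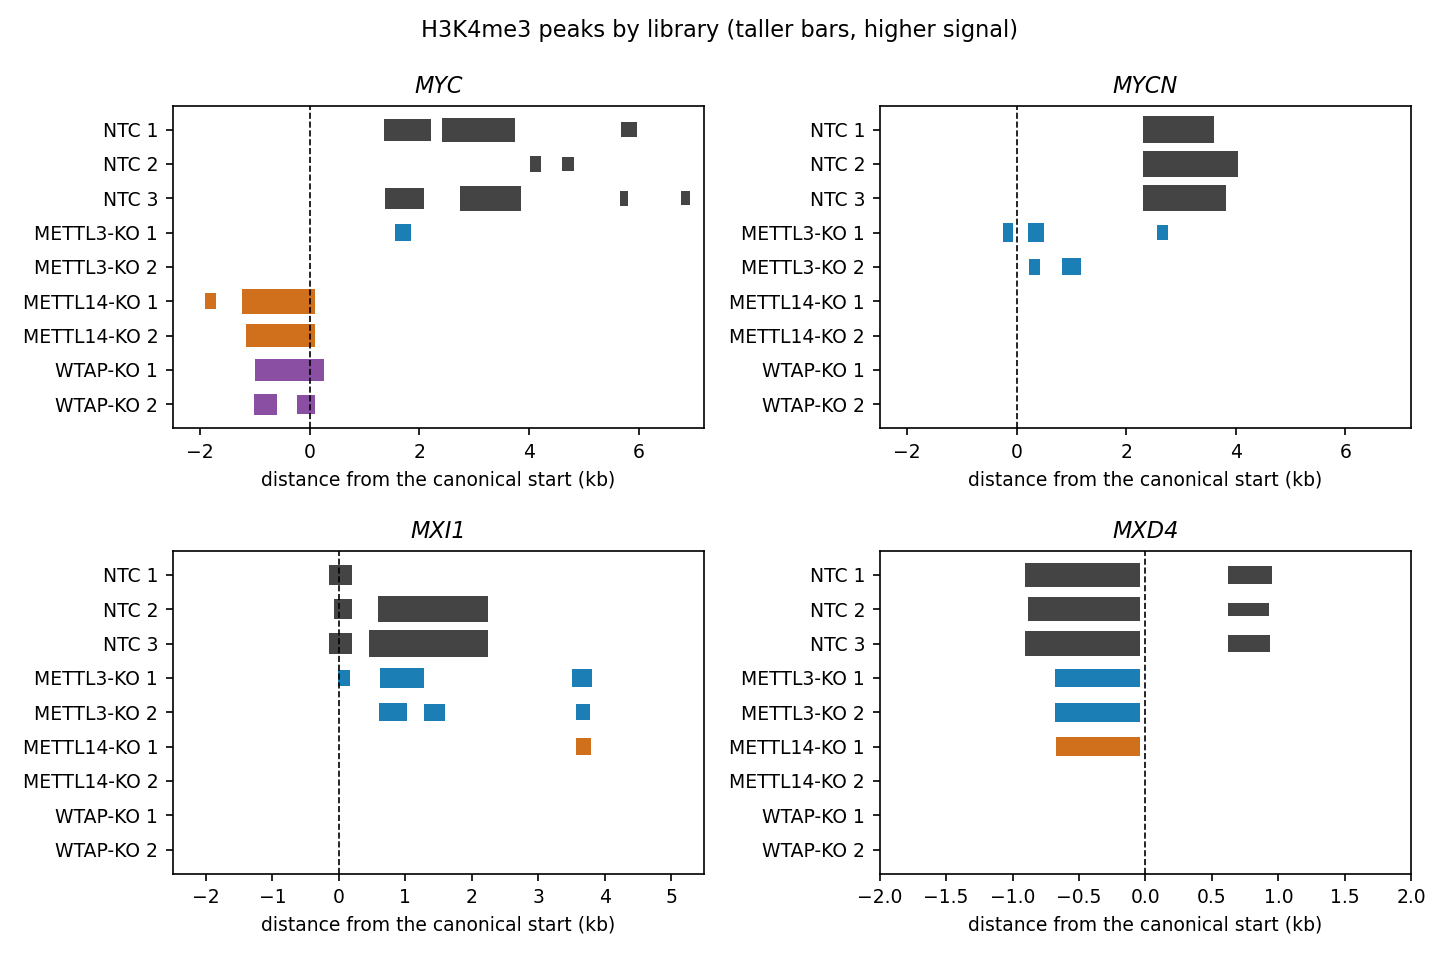
Peaks at MYC, MYCN, MXI1 and MXD4 in each library (rows), by distance in kb from the canonical start (dashed line, negative values upstream), with taller bars for higher signal. At MYC each METTL14-KO and WTAP-KO library has a peak over the start, 2 further peaks of these libraries lie upstream, and the NTC peaks lie downstream, and at MYCN the NTC peaks begin 2308 or 2309 bp past the start.

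MYCN (ENSG00000134323, chromosome 2, 16080672 to 16087129, plus strand), a neural relative of MYC, had NTC signals of 13122, 11624 and 9747 (11498 ± 1691, n = 3). METTL3-KO had 1247 and 503, or 7.61% of the NTC mean, and METTL14-KO and WTAP-KO had no peak, so that the groups did not overlap. The difference was -3.79 in METTL3-KO (SE 0.419, adjusted p 0.000197, limma) and -8.57 in the other KO groups. The NTC peak covered exon sequence from 16082980 to 16084705, over an internal annotated start, and no NTC library had a peak within 1 kb of the canonical start at 16080672. In METTL3-KO, peaks stood instead on both sides of that start in replicate 1 and past it in replicate 2. A further peak of replicate 1, with a signal of 281, shared sequence with the NTC peak. Counted at the canonical start, the fitted METTL3-KO difference was 4.78, given as a description because NTC had no peak there, so that the direction at MYCN depends on which start is used. The antisense lncRNA MYCNOS begins 682 bp from a MYCN start. The upstream peak, with a signal of 1247, was listed in METTL3-KO replicate 1 alone. Its sequence is shown because no NTC library had a peak there (hg19, chr2:16080429-16080605, plus strand). Part of it lies in an exon of MYCNOS, and the capitals mark a GC box, GGGCGG.
MYCN METTL3-KO peak: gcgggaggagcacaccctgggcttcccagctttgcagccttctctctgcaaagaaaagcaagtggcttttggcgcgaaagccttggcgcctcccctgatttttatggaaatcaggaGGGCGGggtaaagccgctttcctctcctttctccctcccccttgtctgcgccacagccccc

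MYCL (ENSG00000116990, chromosome 1, 40361100 to 40367928, minus strand), the third MYC gene, had NTC signals of 3851, 2914 and 4490 (3751 ± 793, n = 3). The METTL3-KO signals were 442 and 508 and those of METTL14-KO and WTAP-KO were 0. Every METTL3-KO value lay below every NTC value and above the other KO groups. The difference was -2.88 in METTL3-KO (SE 0.237, adjusted p 4.1e-05, limma) and -6.95 in METTL14-KO and in WTAP-KO. The METTL3-KO peaks were 191 and 231 bp wide and lay within the NTC peaks of 615 to 632 bp, over the outermost start and short of the canonical one at 40367589. The 300 bases before the outermost start, which the 3 NTC peaks cover, are shown with a GC box in capitals (hg19, chr1:40367929-40368228, minus strand).
MYCL promoter: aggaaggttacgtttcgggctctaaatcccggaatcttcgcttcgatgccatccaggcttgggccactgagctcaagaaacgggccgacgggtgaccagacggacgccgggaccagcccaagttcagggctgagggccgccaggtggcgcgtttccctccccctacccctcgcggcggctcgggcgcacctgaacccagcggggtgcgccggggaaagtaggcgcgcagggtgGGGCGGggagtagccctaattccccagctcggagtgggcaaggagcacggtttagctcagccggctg

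MYCN and MYCL were the members called different between METTL3-KO and the other KO groups in the main fit. Both were higher in METTL3-KO, 2 of 10 beside 29.5% of all genes tested. The differences were 4.78 for MYCN (SE 0.397, adjusted p 0.000203, limma) and 4.07 for MYCL (SE 0.225, adjusted p 4.3e-05). MXI1 and MXD4 had differences of 4.08 (SE 1.35, adjusted p 0.0681) and 3.64 (SE 1.34, adjusted p 0.0950). The value for MYC was -4.81 (SE 2.5, adjusted p 0.204). Its METTL3-KO signals, 609 and 0, lay below those of the other KO groups, 2188 to 7158. With the KO groups fitted alone MYC was called lower and MXI1 higher, and without NTC replicate 2 MYC was again called lower. MXD1 and MLX were called higher at 5 kb, and MXI1 with the sum of peaks. The median was 2.03 over the members beside 1.71 over all genes. With peaks at or above the median NTC peak signal, 2095, no METTL3-KO library had a member marked, and the calls for MYCN and MYCL were lost.

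MAX (ENSG00000125952, chromosome 14, 65472892 to 65569413, minus strand), the shared partner of the network, had NTC signals of 0, 6461 and 9282 and no peak in any KO library. At 5 kb the NTC signals were 3373, 6461 and 9282, and the KO libraries had no peak within this distance either. MAX entered the test through NTC alone, so that its differences and p-values are a description. The difference for all KO groups at 1 kb was -5.34 (SE 1.87, adjusted p 0.0336, limma). It did not pass when any 1 KO library was left out (adjusted p 0.0640 to 0.0671), and no single KO group passed (adjusted p 0.0855 to 0.0863). Each KO group passed at 5 kb (-7.62, adjusted p 3.0e-06 to 3.6e-06) and without NTC replicate 1 (-8.01, adjusted p 7.8e-07 to 7.9e-07). NTC replicate 1 had no peak for 70717 bp around the canonical start. In replicate 3 the peak over the start was 1801 bp wide, and in replicate 2 peaks of 294 and 1117 bp stood in its place. Among genes marked in all NTC libraries, which MAX was not, the most like patterns included those of CREB5 and STAR. Their distances were 2.60 and 4.0 over the 9 libraries. Each had its lowest NTC value in replicate 1 and no KO peak, which follows from their choice by likeness and is no separate evidence.

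MXD1 and MXD3, which encode repressors that pair with MAX in differentiating and in dividing cells, lost their promoter peaks in all 6 KO libraries. MXD1 (ENSG00000059728, chromosome 2, 70124820 to 70170077, plus strand) had NTC signals of 6657, 9637 and 9359 (8551 ± 1646, n = 3), and its difference was -8.14 in each KO group (SE 0.197, adjusted p 1.1e-07 in each, limma). MXD3 (ENSG00000213347, chromosome 5, 176728462 to 176739758, minus strand) had 6008, 5646 and 7059 (6238 ± 734, n = 3) and a difference of -7.70 in each (SE 0.144, adjusted p 6.2e-08 in each). Neither gene had a KO peak within 1 kb, and both entered the test through NTC alone. These differences and p-values are therefore a description. At 5 kb METTL3-KO had MXD1 signals of 1912 and 1621, from peaks 3476 bp from the nearest MXD1 start, where NTC had 7591 to 8486. SNRNP27, a splicing factor gene, starts 1168 bp from an MXD1 start. MXD3 had 393 at 5 kb in METTL3-KO replicate 1, and its neighbours RAB24 and PRELID1 start 4318 and 2446 bp from MXD3 starts.

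MXD4 (ENSG00000123933, chromosome 4, 2249159 to 2263836, minus strand), a further MXD repressor, was marked in 3 KO libraries. Its NTC signals were 5161, 4515 and 6794 (5490 ± 1175, n = 3), METTL3-KO had 831 and 993, METTL14-KO had 1159 and 0, and WTAP-KO had none. All KO values lay below the NTC values. The difference was -4.96 for all KO groups (SE 1.09, adjusted p 0.00489, limma), -2.53 in METTL3-KO (SE 1.41, adjusted p 0.144), -4.85 in METTL14-KO (adjusted p 0.0180) and -7.50 in WTAP-KO (adjusted p 0.00240). The WTAP-KO value is a description, since that group had no peak. The METTL14-KO call was lost with 5 settings, among them the replicate block (adjusted p 0.0635). Centred on the genes marked in all 9 libraries, the call for all KO groups was lost as well (-2.99, adjusted p 0.0669). The 6 peaks began at nearly one place, 40 or 41 bp before the start. They were 846 to 868 bp wide in NTC and 631 to 640 bp in the KO libraries. The 300 bases common to them that lie nearest the start are shown because 3 NTC and 3 KO libraries shared a peak on them (hg19, chr4:2263877-2264176, minus strand). The capitals mark the E-box CACGTG and a GC box on the other strand, CCGCCC.
MXD4 shared peak sequence: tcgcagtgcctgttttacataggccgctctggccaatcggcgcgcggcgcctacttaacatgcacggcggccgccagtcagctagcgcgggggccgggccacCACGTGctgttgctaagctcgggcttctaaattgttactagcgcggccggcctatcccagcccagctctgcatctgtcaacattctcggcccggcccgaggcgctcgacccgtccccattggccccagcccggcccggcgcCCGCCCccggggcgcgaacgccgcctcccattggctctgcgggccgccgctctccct

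MXI1 (ENSG00000119950, chromosome 10, 111967363 to 112047123, plus strand), which encodes the repressor also called MXD2, had NTC signals of 1432, 10271 and 14786 (8830 ± 6793, n = 3). METTL3-KO had 1467 and 618, METTL14-KO had 395 and 0, and WTAP-KO had none. METTL3-KO replicate 1 overlapped the lowest NTC value. The difference was -5.34 for all KO groups (SE 1.10, adjusted p 0.00356, limma), -2.62 in METTL3-KO (SE 1.42, adjusted p 0.135), -5.75 in METTL14-KO (adjusted p 0.00895) and -7.65 in WTAP-KO (adjusted p 0.00223). The METTL14-KO call was lost with the replicate block (adjusted p 0.0548), without METTL14-KO replicate 2 (0.0506) and after centring (0.0839), and both it and the WTAP-KO call with peaks at or above the NTC median (0.0957 and 0.0964). Since WTAP-KO had no peak at MXI1, its value is a description. The highest NTC values came from 1 region, 111967815 to 111969611. It had no peak in NTC replicate 1 and peaks of 1665 and 1797 bp in replicates 2 and 3. The peak over the canonical start was steadier in NTC, with 1248, 1531 and 1927, and was 402 in METTL3-KO replicate 1 and absent from the other KO libraries.

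An intronic site of MXI1, 111970877 to 111971177, had peaks in the KO libraries and none in NTC. Its signals were 548 and 387 in METTL3-KO and 395 in METTL14-KO replicate 1. The other 3 KO libraries had none. The lncRNA ENSG00000228417 starts 907 bp from an MXI1 start. The bases that the 3 KO peaks share are shown, since no NTC library had a peak at them (hg19, chr10:111970936-111971149, plus strand), and none of the 3 motifs searched was found there.
MXI1 intronic site: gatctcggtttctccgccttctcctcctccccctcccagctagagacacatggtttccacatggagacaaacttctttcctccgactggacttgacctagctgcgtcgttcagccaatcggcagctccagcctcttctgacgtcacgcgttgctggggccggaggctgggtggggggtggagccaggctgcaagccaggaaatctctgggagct

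MNT (ENSG00000070444, chromosome 17, 2287367 to 2304398, minus strand), which encodes the MAX partner present in most cells, had NTC signals of 4254, 3567 and 5913 (4578 ± 1206, n = 3). METTL3-KO replicate 1 had 480 and the other 5 KO libraries had none. The difference was -5.18 in METTL3-KO (SE 1.09, adjusted p 0.00465, limma) and -7.23 in the other KO groups. Its NTC peaks fell into 6 regions near annotated starts, 1 of them over the canonical start (296, 699 and 1369). The METTL3-KO peak, 199 bp wide, lay in the intronic region with the highest NTC signals in replicates 1 and 3. The other 5 regions had no KO peak.

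MLX (ENSG00000108788, chromosome 17, 40719090 to 40725257, plus strand), the partner of the sugar-sensing factors MLXIP and MLXIPL, had NTC signals of 9293, 9815 and 12426 (10511 ± 1679, n = 3). METTL3-KO had 0 and 465, and METTL14-KO and WTAP-KO had none. The difference was -6.42 in METTL3-KO (SE 1.07, adjusted p 0.00159, limma). It was -8.44 in METTL14-KO (adjusted p 0.000358, limma) and WTAP-KO (adjusted p 0.000343), a description, since these groups had no peak. The NTC peaks were 1670 to 1685 bp wide over the start, while the METTL3-KO peak was 315 bp wide and began 257 bp past it. The 300 bases before the outermost start, in the NTC peaks, are shown with an E-box in capitals (hg19, chr17:40718790-40719089, plus strand).
MLX promoter: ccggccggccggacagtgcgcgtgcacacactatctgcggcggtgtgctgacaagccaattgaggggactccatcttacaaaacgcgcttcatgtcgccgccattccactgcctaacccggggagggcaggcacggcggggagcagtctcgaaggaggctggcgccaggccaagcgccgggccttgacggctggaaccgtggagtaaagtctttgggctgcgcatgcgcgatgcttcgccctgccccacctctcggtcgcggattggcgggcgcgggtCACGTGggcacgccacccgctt

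Across the members, KO peaks were few, and some of them lay on sequence with no NTC peak. Within 1 kb of a start, METTL3-KO had 17 peaks, of which 11 shared sequence with an NTC peak and 6, at MXI1 and MYCN, did not. METTL14-KO had 5, of which 1, at MXD4, shared sequence, and WTAP-KO had 3, all at MYC, of which 0 did. Median widths were 285, 631 and 423 bp beside 648.5 bp for the 68 NTC peaks.

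A set of 3 motifs was searched on both strands in the 300 bases from 250 before to 50 after each canonical start (hg19). The E-box CACGTG, the site of MYC and MAX, was in the promoters of MAX, MXD4, MNT and MLX, 4 of 10 members, and in 8.76% of 19881 promoters. The GC box GGGCGG was in all 10 and in 61.4% of promoters. The erythroid site GATAA was in those of MYC and MXD1 and in 17.3% of promoters. None of these motifs contains another. A match is a description and no evidence of binding. Of the 4 members with an E-box, MXD4 had 3 KO libraries with a promoter peak, MNT and MLX had 1 each and MAX had 0.

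Genes that work with the network were counted in lists, to be read beside the 73.0% of all genes tested that were lower and the 14.3% that were higher in the KO groups combined, and beside their median of -5.30. List genes with no NTC peak entered the test only through KO libraries, and their values are a description. Of 15 cofactors tested, 12 were lower in the KO groups combined and RUVBL2, a helicase of chromatin complexes, was higher, with a median difference of -5.05. The acetyltransferase gene KAT5 and the corepressor gene SIN3A had a promoter peak in all 6 KO libraries, KAT5 at 356 to 3243 beside 13327 to 16246 in NTC. SIN3A was marked in 1 NTC library, at 8087, and had 1586 to 7934 in the KO libraries. The highest mean NTC signals among the others were those of NCOR1, ZBTB17 and BPTF, all 3 lower (adjusted p up to 0.00373, limma).

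Of 12 genes of MYC turnover, 6 were lower and 2 higher, beside 73.0% and 14.3% of all genes, with a median of -3.34. AURKA, the gene of a mitotic kinase that protects MYCN from breakdown, had no NTC peak and 1084 to 5347 in the KO libraries. CIP2A, an inhibitor of the phosphatase that destabilises MYC, had 0, 0 and 251 in NTC and 1574 to 13003 in the KO libraries. CIP2A and AURKA were the 2 called higher, and the call of AURKA, which had no NTC peak, is a description. GSK3B, a kinase of MYC, also had a peak in all KO libraries. It was marked in 1 NTC library and did not pass (2.15, adjusted p 0.383). USP7, PPP2R5A and FBXW7 had the highest mean NTC signals of the rest. USP7 lost its peak in every KO library, while PPP2R5A and FBXW7, each at 0 in 1 NTC library, did not pass.

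Of 20 MYC target genes tested, 14 were lower and 3 higher, close to the shares of all genes (73.0% and 14.3%), with a median of -5.57. ODC1, SHMT2 and CAD, of polyamine, one-carbon and pyrimidine synthesis, had the highest mean NTC signals and were lower (differences of -6.78, -6.59 and -7.35). APEX1, of DNA repair, and RRS1, of ribosome assembly, had no NTC peak and a peak in all 6 KO libraries, at 556 to 5067 and 383 to 6161. Both, and PPAT, were called higher. PPAT had no NTC peak either, so that these calls are a description.

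Of 10 genes that control MYC transcription, 7 were lower and 2, FUBP1 and CNBP, higher, beside 73.0% and 14.3% of all genes, with a median of -5.49. None had a peak in all 6 KO libraries. FUBP1 and CNBP had no NTC peak, so that their calls are a description. STAT5A and STAT5B had the same NTC signals, 15421 to 16393, from a shared peak, so that these cannot be given to one of them. CTCF, the insulator protein gene, fell from 10419 to 13035 in NTC to 338 and 78 in METTL3-KO and 0 in the other KO libraries. Of 9 m6A writers, erasers and readers, 4 were lower and 3 higher, beside the same shares of all genes, with a median of -3.16. IGF2BP2, a reader that stabilises MYC mRNA, had 64.5, 0 and 1138 in NTC and 2387 to 13456 in the KO libraries (difference 5.23, adjusted p 0.00498, limma). METTL3, WTAP and FTO had the highest mean NTC signals of the rest. METTL3 and FTO were lower and WTAP did not pass (adjusted p 0.192). Since RNA and protein were not analysed here, these peaks are no check that the targeted genes were inactivated. Of the 3 other network genes, MGA was marked in KO libraries at 842, 632 and 247 and not in NTC, MLXIP in 1 NTC library at 15301, and MLXIPL in none.

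**Figure D4:**
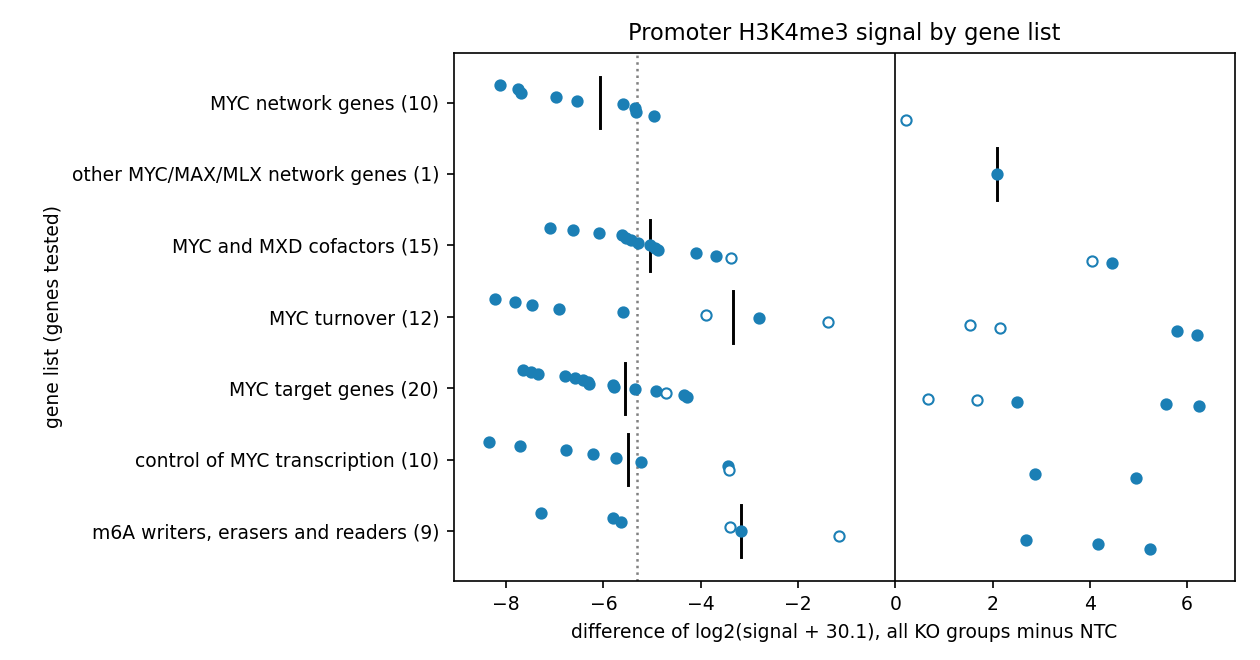
Difference of log2(signal + 30.1) between all KO groups and NTC for the genes of each list (circles, filled where adjusted p was under 0.05), with the list median as a black bar and the median of all 12037 genes tested, -5.30, as a dotted line. MYC is the open circle at 0.21 in the top row, and AURKA and APEX1, at 6.21 and 6.25, lie at the right edge.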

How the data were processed

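H3K4me3 CUT&RUN peaks of 9 HEL libraries in 4 groups were analysed, with groups and replicate numbers from the sample labels. According to the study's methods, the authors aligned paired reads with Bowtie to hg19 and to the sacCer3 spike-in, calibrated by the spike-in, removed duplicates with Picard and called peaks in each library. The deposited lists give a start, an end and a signal per peak, read from the values as calibrated coverage summed over the peak, since the authors' files have no header. Within each library all signals were whole multiples of a step (tolerance 0.05). Because the signal is no count and gives no depth, precision rests on having 2 or 3 libraries a group. Peak starts were assumed to count from 0 and are printed here counting from 1.

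The largest peak within 1 kb of any GENCODE start on hg19 was taken per gene and library. A linear model with an intensity trend (limma 3.58.1 in R 4.3.3) was fitted to log2(signal + 30.1), with the smallest signal as pseudocount, over protein-coding genes with a peak in at least 2 libraries, with all groups in 1 model and Benjamini-Hochberg adjustment at 0.05. Overlapping peaks were merged over libraries into regions, whose summed signals are described without a test. The fit was tested on simulated data with normal noise in every library. These data held no group at the floor, so that p-values for groups without a peak were not tested by it. Members, gene lists and tests were chosen with earlier results of these data known. All members were named in every library. From each list, genes with a peak in all 6 KO libraries and, of the rest, the 3 with the highest mean NTC signal were named. Other named list genes (RUVBL2, PPAT, FUBP1, CNBP and the marker genes) were picked after their values were seen. Neighbours starting within 5 kb and, for MYC and MAX, the 3 nearest patterns were also named. Some genes that these rules name are not reported here. Alternatives were the window, the starts used, the sum of peaks, the pseudocount, the gene filter, 2 scalings, the peak threshold, the replicate block, the groups fitted, leaving out each library and, for all KO groups, an exact permutation test. The canonical start alone and a peak over it were added after seeing the data. Python 3.11.15, pandas 2.3.3, numpy 2.4.6 and matplotlib 3.10.9 were used.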

Additional observations from a re-analysis of the deposited data

Results flagged for a closer look

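Both results here are differences between KO groups under the same contrast with NTC, tested directly. MYCN was higher in METTL3-KO than in METTL14-KO and WTAP-KO by 4.78 on the log2(signal + 30.1) scale (adjusted p 0.000203, limma), with a peak in 2 of 2 METTL3-KO libraries and in none of the other 4. MYCL was higher by 4.07 (adjusted p 4.3e-05, limma), also with a peak in 2 of 2 libraries and in none of the other 4. The METTL3-KO values were 503 to 1247 at MYCN and 442 to 508 at MYCL. At MYCN the METTL3-KO peaks lay mostly at the canonical start, where NTC had none, and at MYCL they lay within the NTC peaks. The weakest listed peak was worth 66 and 30 steps of the values in METTL3-KO and 70 to 94 in the other KO libraries, while in calibrated units it was 30.1 to 32.0 in all 9 libraries. The part of this difference in peak calling in these differences was not tested.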

How the results depend on the processing

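Over 10 members and 5 comparisons, 1035 values were recomputed, and 971 had the same sign and the same call as reported, 28 gained a call, 25 lost it and 11 changed sign. The sign changes were at MYC and MYCN. For MYC against all KO groups the value became -0.98 at 5 kb, -0.22 with 10 times the pseudocount, -0.52 with peaks at or above the NTC median or without METTL3-KO replicate 1, and -2.39 without NTC replicate 2. Over all settings without 1 library it ran from -2.39 to 1.66, with METTL14-KO from -0.27 to 3.78 and WTAP-KO from -1.30 to 2.74, the lowest each without NTC replicate 2 and the highest without NTC replicate 3. MYC passed in none of these. MYCN became 1.59 for all KO groups and 4.78 for METTL3-KO with starts of protein-coding transcripts or with the canonical start.

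Counts of genes called, lower and higher together, were 10499 for all KO groups, 9024, 9290 and 9206 for METTL3-KO, METTL14-KO and WTAP-KO, and 3622 for METTL3-KO against the others. Restricted to genes with a peak in all 9 libraries, which leaves few genes to test, they were 623, 564, 608, 633 and 587. With peaks at or above the NTC median they were 6127 for METTL14-KO, 6099 for WTAP-KO and 888 for METTL3-KO against the others. The last was 2280 after centring on genes marked in all 9 libraries and 2082 after division by the step. Leaving out 1 library gave 9551 to 10133, 8079 to 9547, 9101 to 9441, 9013 to 9489 and 2389 (without METTL3-KO replicate 1) to 4378. Centring moved the median of all genes for all KO groups from -5.30 to -3.44, and 9 of 10 members stayed below 0.

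The replicate numbers did not pair the libraries (mean correlation 0.00586 over 12 pairs, from -0.0578 to 0.0950). With the replicate block, 10002, 8756, 9329, 9414 and 2746 genes were called, and the calls of MAX for all KO groups (adjusted p 0.135, limma) and of MXD4 and MXI1 for METTL14-KO (0.0635 and 0.0548) were lost. By the exact permutation test 8644 genes passed, and MAX did not (adjusted p 0.102).

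The mean number of members with a peak was 10 in NTC at 5 kb, 8.33 with starts of protein-coding transcripts, 7.67 with the canonical start and 5.67 with a peak over it. The shares of all protein-coding genes beside these were 53.5%, 45.5%, 43.0% and 28.6%. In METTL3-KO the mean number was 7.5 at 5 kb, 0 with peaks at or above the NTC median, 4.5 with the canonical start and 0.5 over it, beside 36.3%, 13.1%, 31.5% and 17.2% of all genes. Leaving out 1 library gave 9 to 9.5 in NTC, 5 to 6 in METTL3-KO, 1 to 3 in METTL14-KO and 1 in WTAP-KO.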
